A study of Macaca mulatta with 4 samples.

Results

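The ERBB receptors and neuregulins described here are 7 genes of the prefrontal cortex of infant rhesus macaques (Macaca mulatta): the receptor tyrosine kinase genes EGFR, ERBB2, ERBB3 and ERBB4 and the ligand genes NRG1, NRG2 and NRG3. They were taken by symbol from a table of 33618 genes, and all 7 were among the 17693 genes with enough reads to be tested. RNA-seq was done on 4 libraries of wild type animals, 2 control and 2 sevoflurane, numbered replicates 2 and 3 in each group by the labels. Sevoflurane, an inhaled general anaesthetic, was given at about 2.5 to 3% for 4 hours on each of 3 occasions, starting at about postnatal day 7 with repeats 14 and 28 days later. Tissue was collected right after the last of these. The control libraries carry the agent label none, and nothing in the sources used here describes how or when the control animals were handled and sampled. No label states that each library is a separate animal, so every p measures the spread between these libraries, which may be technical.

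ERBB receptors are cell surface kinases that work in pairs. EGFR binds ligands of the epidermal growth factor type, ERBB4 and ERBB3 bind neuregulins, ERBB2 has no known ligand of its own and serves as partner, and ERBB3 has very weak kinase activity and signals mainly through a partner. Neuregulins displayed on or shed from axons drive Schwann cells to myelinate peripheral nerves through ERBB2 and ERBB3, as shown in mice, and in the central nervous system ERBB3 is a gene of the oligodendrocyte lineage. In rodent cortex, ERBB4 is found mainly in GABAergic interneurons.

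The group was selected on the lower counts of ERBB3 after sevoflurane in an earlier look at the same contrast, so the values of the 7 genes between groups are a description and not a test of the choice. Libraries held between 7793757 and 11706115 counts, with the fewest in control replicate 3. That library also lay far from the rest along the first principal component, which held 53.7% of the variance, with a score of 65.94 where the others had -33.76 to -5.99. Markers of excitatory cortical neurons, such as SLC17A7, were present in every library, with a summed level over 7 genes of 4512 to 6626 CPM (counts scaled to a common library size, adjusted for library composition by TMM). Each pair of values below is for replicate 2 and then replicate 3 of a group. Transcript lengths were not used, so levels are compared between libraries and not between genes.

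ERBB3 was lower in both sevoflurane libraries, at 27.8% of its control level, whereas the other 6 genes were within 1.27-fold of their control level. Over all 17693 genes, 95 were called lower (0.537%) and 11 higher (0.0622%) at a Benjamini-Hochberg adjusted p under 0.05 in edgeR's quasi-likelihood test. Among the 7 genes 1 was called lower, ERBB3, and 0 higher, a count from which nothing is read because the same contrast chose the group. The groups did not overlap for 4 of the 7 genes, against 41.2% of all genes tested. Controls were the higher group for 2 of these (20.4% of all genes) and sevoflurane for the other 2 (20.8% of all genes).

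ERBB3, the receptor that relays neuregulin signals to the PI3-kinase route, had 80.5 and 83.8 CPM in controls and 15.6 and 30.1 CPM after sevoflurane. The counts behind these levels were 827 and 633 in controls and 183 and 356 after sevoflurane. The controls differed by 1.04-fold, the sevoflurane libraries differed by 1.93-fold, and the lower control was 2.67-fold above the higher sevoflurane library. The group means were 82.2 ± 2.29 and 22.9 ± 10.3 CPM (SD, n = 2 per group). On the log2 scale the difference was -1.84 (SE 0.27, 95% interval -2.44 to -1.25), and the adjusted p of 0.0213 from edgeR is the value behind its choice. Of all genes tested, 0.424% had a log2 fold change as low or lower.

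ERBB2, the partner receptor, was the gene with the fewest reads, 186 and 81 in controls and 186 and 147 after sevoflurane. Its levels were 18.1 and 10.7 CPM in controls and 15.9 and 12.4 CPM after sevoflurane. Both sevoflurane libraries lay between the controls. The log2 fold change was -0.04 (SE 0.29), with the widest interval of the 7 genes, -0.69 to 0.61. Dropping control replicate 2 turned it to 0.40 and dropping control replicate 3 to -0.36, so its direction rested on which control was kept.

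EGFR, the receptor for epidermal growth factor and its relatives, had 89.7 and 76.6 CPM in controls. After sevoflurane it had 88.0 and 94.3 CPM, and the groups overlapped. Its log2 fold change was 0.13 (SE 0.14, 95% interval -0.19 to 0.45). ERBB4, the neuregulin receptor of cortical interneurons, had the most reads of the 7 genes, up to 1675 in a library. It had 144 and 154 CPM in controls and 143 and 136 CPM after sevoflurane. Both controls were above both sevoflurane libraries, but the lower control exceeded the higher sevoflurane library by only 1.01-fold. The log2 fold change was -0.10 (SE 0.12, 95% interval -0.38 to 0.18). For both receptors the interval leaves out a change as large as that of ERBB3.

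**Figure D1:**
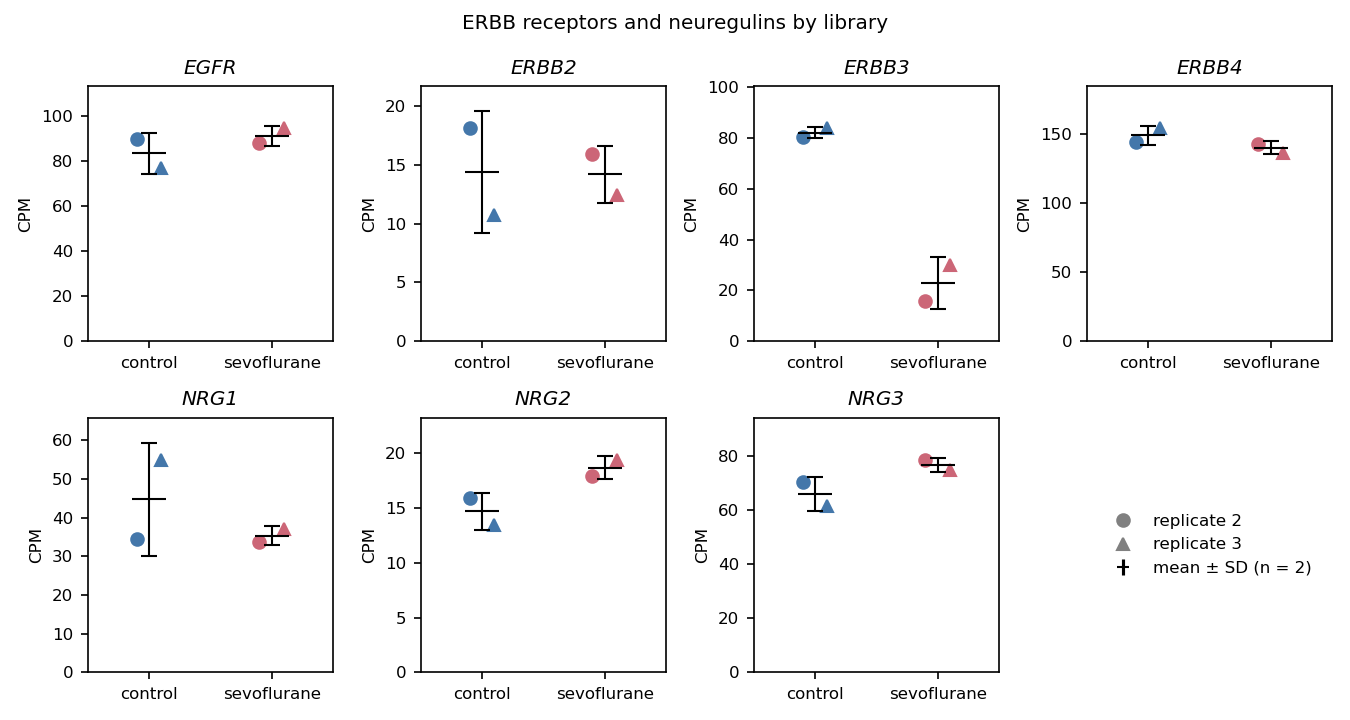
Level in CPM (vertical axes, from 0) of each ERBB receptor and neuregulin gene in the control and sevoflurane libraries, with circles for replicate 2, triangles for replicate 3 and black bars for the mean ± SD (n = 2). ERBB3 sits at 80.5 and 83.8 CPM in controls and at 15.6 and 30.1 CPM after sevoflurane, and the other genes stay close to their control level or overlap.

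NRG1, the neuregulin best known for its role in myelination of peripheral nerve, had 34.5 and 54.9 CPM in controls and 33.6 and 37.1 CPM after sevoflurane. Control replicate 3 was high and the other 3 libraries were alike. The log2 fold change was -0.33 (SE 0.22, 95% interval -0.84 to 0.17), which became 0.04 without control replicate 3 and -0.64 without the other control. The lower mean after sevoflurane thus rested on control replicate 3.

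NRG2, a ligand of ERBB3 and ERBB4, had 15.9 and 13.5 CPM in controls and 17.9 and 19.4 CPM after sevoflurane. Both sevoflurane libraries were above both controls. The log2 fold change was 0.34 (SE 0.21, 95% interval -0.14 to 0.82), and it was not called. NRG3, a ligand of ERBB4, had 70.4 and 61.5 CPM in controls and 78.4 and 74.7 CPM after sevoflurane. These groups did not overlap either, and the log2 fold change, 0.21 (SE 0.15, 95% interval -0.11 to 0.54), was not called. Without control replicate 3 the values were 0.23 for NRG2 and 0.12 for NRG3, and with each library left out in turn both stayed positive.

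Leaving out control replicate 3, the library that stood apart, gave -1.82 for ERBB3, 0.02 for EGFR and -0.05 for ERBB4. Leaving out each library in turn gave -2.39 to -1.45 for ERBB3, with the value nearest 0 without sevoflurane replicate 2. The summed level of the 4 receptors was 333 and 325 CPM in controls and 262 and 273 CPM after sevoflurane. This sum includes ERBB3, with 80.5 and 83.8 CPM in controls and 15.6 and 30.1 CPM after sevoflurane. The other 3 receptors were not called, so the lower sum does not describe the receptors as a class. For the 3 neuregulins the sum was 121 and 130 CPM in controls and 130 and 131 CPM after sevoflurane. The neuregulin sums overlapped between groups.

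Ratios of counts within a library need no scaling between libraries. ERBB3 reads per ERBB4 read were 0.558 and 0.544 in controls and 0.109 and 0.221 after sevoflurane. ERBB3 reads per ERBB2 read were 4.45 and 7.81 in controls and 0.984 and 2.42 after sevoflurane. The groups did not overlap in either ratio. NRG1 reads per NRG3 read were 0.49, 0.428 and 0.497 in control replicate 2 and sevoflurane replicates 2 and 3, against 0.892 in control replicate 3.

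Genes of the oligodendrocyte lineage were lower in the same libraries as ERBB3. Of 14 markers of mature oligodendrocytes, 13 were called lower, 0 higher and 1 (ASPA) was not called, with a median log2 fold change of -1.87 against -0.002 over all genes tested. Their summed level was 9537 and 15007 CPM in controls and 2488 and 3720 CPM after sevoflurane, with no marker at 0. OPALIN, a protein of myelinating oligodendrocytes, had -1.91 (edgeR adjusted p = 0.00435), and CLDN11, a tight junction protein of myelin, had -1.97 (adjusted p = 0.0062). In bulk tissue, fewer cells of a type and less RNA per cell cannot be told apart, and the part of cell composition in the ERBB3 difference was not tested.

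Of 13 markers of oligodendrocyte precursors, SOX10 (-1.41, edgeR adjusted p = 0.0141) and OLIG2 (-1.19, adjusted p = 0.0416), both transcription factors of the lineage, were called lower and 11 were not called, with a median of -0.74. Their summed level was 1662 and 1521 CPM in controls and 935 and 1040 CPM after sevoflurane, with no marker at 0. OLIG1, VCAN, GPR17, NKX2-2 and BCAN were also called lower by DESeq2 (adjusted p 4.65e-05 to 0.0282). The same genes were called lower in edgeR with the replicate number as a block. OLIG2 was not called without control replicate 3 (adjusted p = 0.0825), without TMM (scaling by totals only, 0.0582) or without the filter (0.0795), and leaving out 1 library gave 3 to 6 called precursor markers. Set in order, ERBB3 lay inside the range of the mature markers: 7 of the 14 had a lower log2 fold change than ERBB3, and 0 of the 13 precursor markers did. PDGFRA, a growth factor receptor that defines precursors, had 197 and 173 CPM in controls and 166 and 170 CPM after sevoflurane (-0.14, not called).

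**Figure D2:**
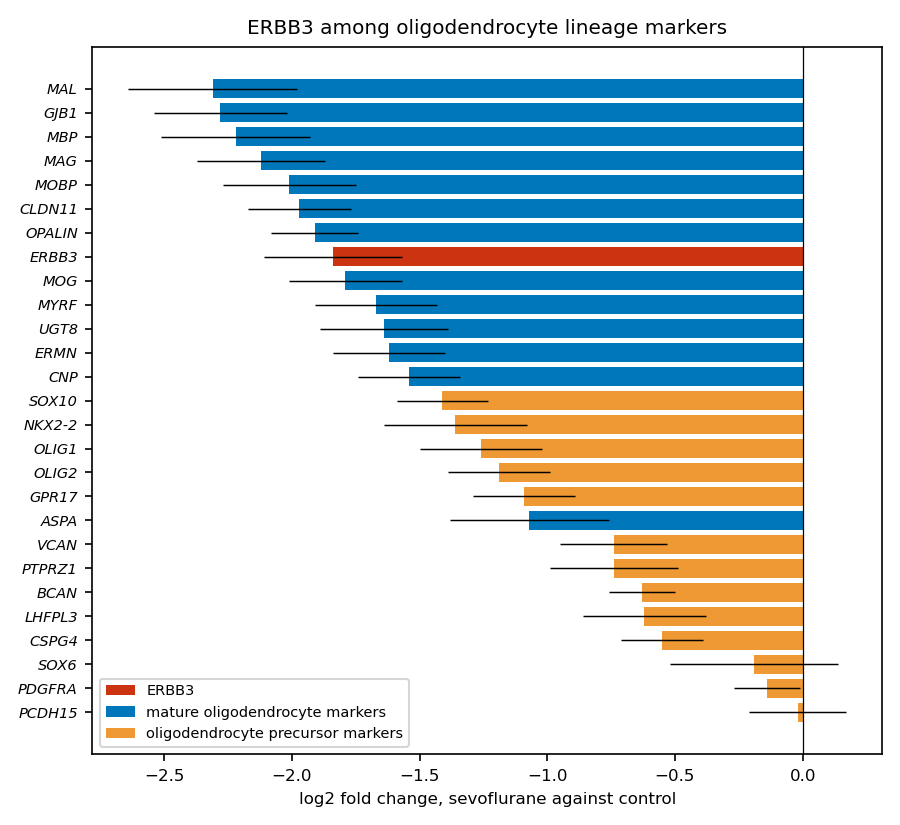
Log2 fold change, sevoflurane against control (horizontal axis), of ERBB3 (red), 13 of the mature oligodendrocyte markers (blue) and 13 precursor markers (orange), with lines for the SE. The ERBB3 estimate of -1.84 lies among the mature markers, between OPALIN at -1.91 and MOG at -1.79, and below the estimate of every precursor marker.

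ERBB3 reads per read of MOG, a surface glycoprotein of myelin, were 0.684 and 0.539 in controls and 0.507 and 0.626 after sevoflurane. The groups overlapped in this ratio. Per read of MBP, the myelin basic protein, the ratios were 0.0253 and 0.0135 in controls and 0.0196 and 0.0247 after sevoflurane, and these overlapped too. Per read of PDGFRA they were 0.41 and 0.485 in controls and 0.0943 and 0.177 after sevoflurane, with no overlap. Per read of SOX10, also on the precursor list, they were 0.621 and 0.485 in controls and 0.304 and 0.485 after sevoflurane. The precursor list was uneven, with a median of -0.74. PDGFRA (-0.14), SOX6 (-0.19) and PCDH15 (-0.02) changed little, while SOX10 had -1.41, the lowest of the list. The separation thus depends on the marker taken. Within the controls all 14 mature markers were higher in control replicate 3 than in control replicate 2, by 1.08-fold to 1.95-fold. ERBB3 was also higher there, by 1.04-fold, close to the lowest of these ratios. Within the sevoflurane libraries 13 of the 14 were higher in replicate 3, with a median ratio of 1.5, and ERBB3 had 1.93, above the highest ratio among them, 1.74.

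**Figure D3:**
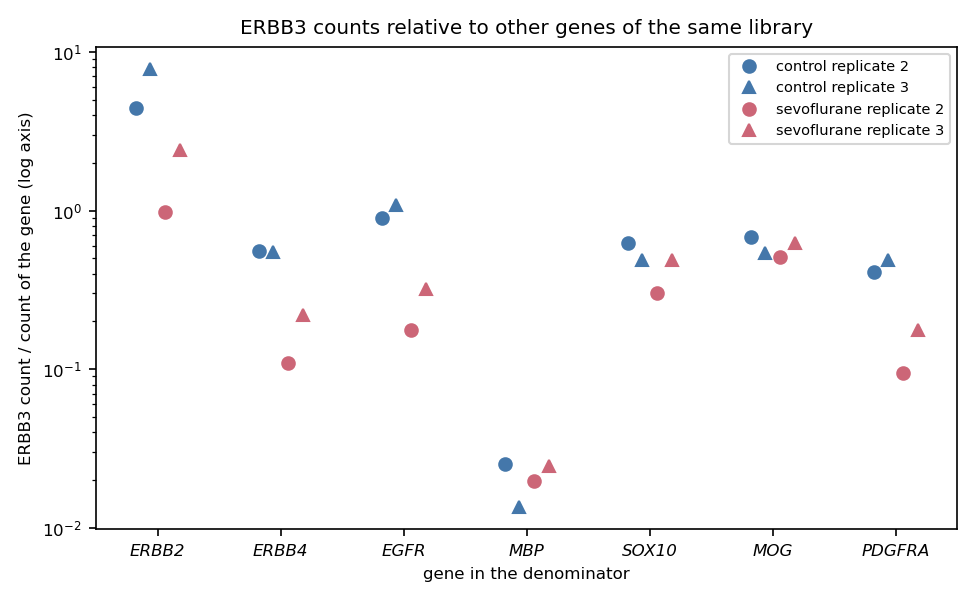
ERBB3 count divided by the count of another gene of the same library (vertical log axis), with blue for control, red for sevoflurane, circles for replicate 2 and triangles for replicate 3. The groups separate for ERBB2, ERBB4, EGFR and PDGFRA and overlap for MBP and MOG; for SOX10, control replicate 3 and sevoflurane replicate 3 are both at 0.485.

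The genes most like ERBB3 in pattern were sought by the Euclidean distance between log2 deviations from the mean of the 4 libraries, over 13688 genes with a symbol and a mean of at least 1 CPM. The distance includes the contrast that chose ERBB3, so the neighbours are a description. In order of distance they included CLCA2 (0.305), UGT8 (0.313), BCAS1 (0.323), MOG (0.34), MYRF (0.341), EFHD1 (0.372) and ERMN (0.401). UGT8, an enzyme of myelin lipid synthesis, had 71.2 and 88.0 CPM in controls and 18.7 and 32.4 CPM after sevoflurane. It was not called without control replicate 3 (-1.48), nor by edgeR with no filter on low counts (-1.64, adjusted p = 0.0543). UGT8, MOG, MYRF and ERMN belong to the list of mature markers, and BCAS1 marks newly formed oligodendrocytes. CLCA2 was a gene of few reads, at 4.09 and 3.44 CPM in controls and 0.682 and 1.61 CPM after sevoflurane, and was not called.

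The pattern of ERBB3 was sparsely populated. Within a distance of 0.4 there were 7 genes for ERBB3, against 963 for ERBB2, 1791 for NRG1, 3864 for NRG2, 5624 for NRG3, 6037 for EGFR and 7171 for ERBB4. The nearest genes of the other members were SMIM10L1 (0.00889) and VPS37A (0.0111) for EGFR, PUS3 (0.0458) and BBS4 (0.0766) for ERBB2, and MTRF1L (0.0119) and ACTL6B (0.0128) for ERBB4. For the neuregulins they were PDCD7 (0.0273) and LYPD6B (0.0415) for NRG1, ZNF821 (0.0219) and SLC30A6 (0.0224) for NRG2, and PLS3 (0.0131) and IGFBP2 (0.0173) for NRG3. All of these distances lay far below those of the genes nearest to ERBB3, whose deviations were larger.

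ERBB3 was set beside the marker lists library by library. Mean log2 deviations from the 4-library mean were 0.93, 0.99, -1.43 and -0.49 for ERBB3 in control replicates 2 and 3 and sevoflurane replicates 2 and 3. Over the same libraries they were 0.67, 1.18, -1.18 and -0.68 for mature oligodendrocyte markers and 0.17, 0.10, -0.16 and -0.12 for 11 astrocyte markers. Markers of meningeal fibroblasts had -0.00, -1.45, 1.34 and 0.11, so they were highest where ERBB3 was lowest, in sevoflurane replicate 2. The summed level of these 7 markers was 235 and 112 CPM in controls and 574 and 208 CPM after sevoflurane, with no marker at 0. SLC6A13 was the 1 called higher (adjusted p = 0.0465 by edgeR). It was not called with any 1 of control replicate 2, control replicate 3 or sevoflurane replicate 2 left out, nor with library size alone (adjusted p = 0.0604), no filter (0.0885) or limma-voom (0.0668). The list median was 0.99, with 0.36 without sevoflurane replicate 2, 0.52 without control replicate 3, 1.72 without control replicate 2 and 1.60 without sevoflurane replicate 3, where 5 of the 7 were called higher. Their part in the ERBB3 difference was not tested.

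**Figure D4:**
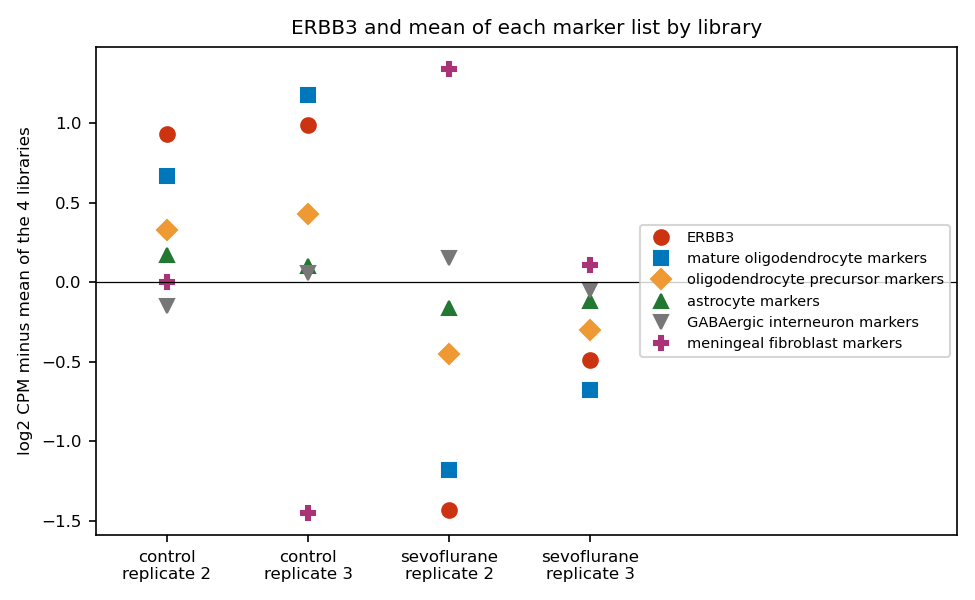
Log2 CPM minus the mean of the 4 libraries (vertical axis) for ERBB3 and for the mean of each marker list, by library (horizontal axis). ERBB3 and the mature oligodendrocyte markers are above 0 in both controls and below 0 in both sevoflurane libraries, while the meningeal markers span -1.45 (control replicate 3) to 1.34 (sevoflurane replicate 2).

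Markers of astrocytes, a cell type that can express EGFR, had a median of -0.14 with 1 of 11 called lower, the filament gene GFAP. Their summed level was 11021 and 9412 CPM in controls and 7500 and 7389 CPM after sevoflurane. GFAP was a large part of this sum, with 5239 and 3869 CPM in controls and 1528 and 1895 CPM after sevoflurane. The log2 fold changes of the list ran from -1.41 (GFAP) to 0.24, with 7 of the 11 negative. Without control replicate 3 the called astrocyte markers were 3, with AQP4 (adjusted p = 0.0149) and GJA1 (0.0293), and without sevoflurane replicate 3 they were 2, with S100B. Markers of GABAergic interneurons, the main ERBB4 cells of rodent cortex, had a median of 0.22 with 0 of 9 called. Their summed level was 498 and 533 CPM in controls and 578 and 495 CPM after sevoflurane, which overlapped. By edgeR 1 of these 9 had an unadjusted p under 0.05, as had 3 of 11 astrocyte, 4 of 8 microglia and 10 of 13 precursor markers and 9.92% of all genes tested. SST, the neuropeptide somatostatin, had -0.62 (edgeR adjusted p = 0.276) and -0.87 without control replicate 2. By edgeR with the replicate number as a block SST was called lower (adjusted p = 0.0267). Among the other lists, CX3CR1, a receptor of resident microglia, was the 1 of 8 microglia markers called lower (-1.03, edgeR adjusted p = 0.02, list median -0.38). The 4 microglia markers with an unadjusted p under 0.05 went both ways. CX3CR1 and CSF1R (-0.41) were lower, and C1QA (0.66) and C1QB (0.67) were higher in both sevoflurane libraries than in both controls. By edgeR 0 of 7 excitatory neuron markers (median -0.13) and 0 of 7 endothelial and mural markers (median -0.02) were called or had an unadjusted p under 0.05. The excitatory list turned with the control kept: its median was -0.31 without control replicate 2, where NRGN was called lower (adjusted p = 0.0147), and 0.23 without control replicate 3, where SLC17A7 was called higher (adjusted p = 0.0413). Further genes with the smallest p of their lists were not called, with log2 fold changes of -0.76 for S100B, 0.37 for KCNC1, -0.29 for NEUROD6, 0.33 for NEUROD2, 0.66 for C1QA, -0.15 for CDH5, 0.21 for FLT1 and 3.37 for SLC13A4. Of these, S100B was called lower without sevoflurane replicate 3 (adjusted p = 0.0149). SLC13A4 had 1.88 without sevoflurane replicate 2 and 4.11 without sevoflurane replicate 3. By edgeR with the block SLC13A4 was called higher (adjusted p = 2.14e-42). SLC13A4, a meningeal gene, had 116 CPM in sevoflurane replicate 2, against 0.529 to 24.5 CPM in the other libraries.

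Of 4 Schwann cell markers, the peripheral counterparts in neuregulin biology, NCMAP had 1 read in all and was not tested. By edgeR 0 of the 3 tested were called and 1 had an unadjusted p under 0.05. PMP2, a myelin lipid carrier, had 11.7 and 20.6 CPM in controls and 6.14 and 6.35 CPM after sevoflurane (-1.36, adjusted p = 0.13 by edgeR). PMP2 had -1.72 without control replicate 2 and -1.39 without sevoflurane replicate 3. With all 4 libraries it was called lower by DESeq2 (adjusted p = 0.0287) and by edgeR with the replicate number as a block (0.00129).

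Outside the 7 genes, the pathway was followed through 4 lists. Of the other 8 ligand genes, EGF, AREG, BTC and EPGN were too low to test, and 0 of the 4 tested (TGFA, HBEGF, EREG and NRG4) were called or had an unadjusted p under 0.05 by edgeR, which 9.92% of all genes tested had. TGFA, a ligand of EGFR, had 19.9 and 16.7 CPM in controls and 14.4 and 14.8 CPM after sevoflurane (-0.33, SE 0.21). EREG had the highest value of this list (1.21, SE 0.99), on 11 and 0 reads in controls and 18 and 14 after sevoflurane. Without control replicate 3, the library with 0 reads, EREG had 0.34, and without control replicate 2 no fold is given because the remaining control is at 0.

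Of 7 genes for shedding of ligands from the cell surface, 0 were called and 2 had an unadjusted p under 0.05 by edgeR (9.92% of all genes). BACE1, the protease that cleaves NRG1 in mouse nerve, had 327 and 405 CPM in controls and 263 and 264 CPM after sevoflurane (-0.48, SE 0.13, adjusted p = 0.225 by edgeR). It was called without control replicate 2 (-0.62, adjusted p = 0.018) and had -0.32 without control replicate 3. BACE2, its relative, had 36.3 and 37.7 CPM in controls and 61.1 and 49.6 CPM after sevoflurane (0.58, SE 0.17, adjusted p = 0.248).

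Of 27 tested adaptors and kinases downstream of the receptors, GAB1 was called lower, 0 were called higher and 26 were not called. The list median was 0.02. Over all genes tested 0.599% were called in either direction. GAB1, a docking protein that links receptors to PI3-kinase and the phosphatase SHP2, had 48.1 and 49.8 CPM in controls and 24.0 and 24.7 CPM after sevoflurane. These levels were tight within each group and did not overlap, with a log2 fold change of -1.01 (SE 0.16, edgeR adjusted p = 0.033). GAB1 was not called without sevoflurane replicate 2 (-0.98, adjusted p = 0.0782) or with no filter on low counts (adjusted p = 0.064). Its adjusted p ran from 0.000181 to 0.0782 over the alternatives. PIK3R1, the regulatory subunit of PI3-kinase, had 450 and 421 CPM in controls and 617 and 663 CPM after sevoflurane (0.56, SE 0.11, adjusted p = 0.0791). It was called higher without control replicate 2 (0.60, adjusted p = 0.0225).

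Of 13 tested inhibitors and turnover factors of ERBB signalling, SPRY4 was called lower, 0 were called higher and 12 were not called. The list median was -0.16. By edgeR 4 of the 13 had an unadjusted p under 0.05, against 9.92% of all genes tested, of which 0.599% were called in either direction. SPRY4, a feedback inhibitor of the RAS to ERK route that ERK activity induces, had 82.1 and 75.8 CPM in controls and 34.9 and 22.1 CPM after sevoflurane. The log2 fold change was -1.47 (SE 0.21, edgeR adjusted p = 0.022), it was called in all 11 alternatives, and it ran from -1.84 to -1.18 with 1 library left out. Its adjusted p ran from 1.34e-11 to 0.0466 over these. SPRY4 was lower in sevoflurane replicate 3 than in replicate 2, the opposite order to ERBB3. LRIG1, a membrane protein that promotes degradation of ERBB receptors, had 220 and 195 CPM in controls and 136 and 133 CPM after sevoflurane (-0.63, SE 0.13, adjusted p = 0.0756). LRIG1 was called lower without control replicate 3 (-0.71, adjusted p = 0.0283), which brings the called genes of this list to 2. LRIG3 had the highest value of the list (0.18, SE 0.29). ERBIN was not matched by name.

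**Figure D5:**
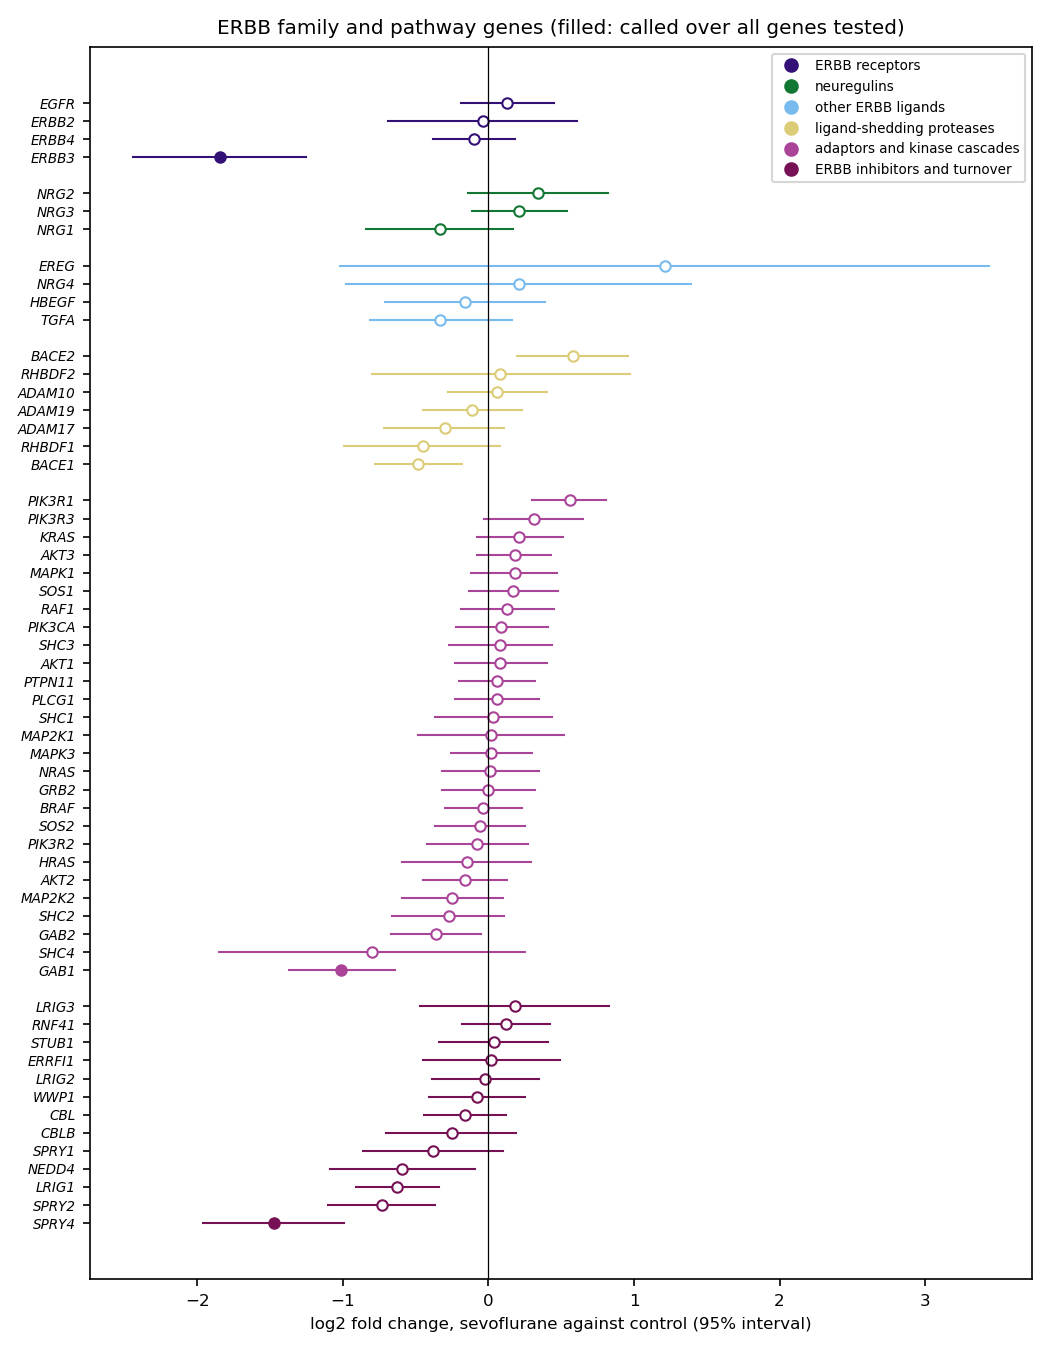
Log2 fold change, sevoflurane against control, with its 95% interval (horizontal axis) for each tested ERBB receptor, neuregulin and pathway gene, coloured by list, with filled circles for genes called over all genes tested. ERBB3 at -1.84, SPRY4 at -1.47 and GAB1 at -1.01 are filled, and the other genes are open.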

How the data were processed

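The authors deposited raw read counts per gene for all 4 libraries together. HISAT2 is named as aligner, per the submitters' processing notes; the sources used here name no counter, genome build, annotation or strand setting. In the RefSeq table of assembly T2T-MMU8v2.0, used for names alone, NRG2 overlaps PURA, so without strand their reads may mix. Sequences and coordinates were not used here.

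Genes were filtered (10 counts at the median depth in 2 libraries, 15 in total), scaled by TMM and tested between groups by quasi-likelihood, two-sided and with no other covariate, in edgeR 4.0.16 (R 4.3.3). The SE is the absolute log2 fold change over the square root of F. Log2 levels used a prior count of 1. Alternatives used limma 3.58.1 and DESeq2 1.42.0. The steps were tested on simulated data with 100 genes changed 2-fold and 100 changed 4-fold. Of these, 53% and 88% were recovered, with 24 false calls. The false calls were a larger share of all calls than the adjusted p threshold of 0.05 aims at, so calls near the threshold are uncertain.

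The members and lists were chosen with earlier results of these data known. The genes named are the 7 members; called genes and the extremes of each pathway list; up to 2 genes of smallest p per marker list; and the nearest in pattern, 8 for ERBB3 and 2 for each other member. ASPA, PDGFRA, MBP, SLC17A7, LRIG1, AQP4, GJA1, NRGN and NCMAP were chosen after their values were seen. So were CSF1R, C1QB, OLIG1, VCAN, GPR17, NKX2-2, BCAN, SOX6 and PCDH15. Values of a few genes picked by this rule are not reported here.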

Additional observations from a re-analysis of the deposited data

How the results depend on the processing

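Genes called lower numbered 95 and higher 11. With no filter on low counts they were 57 and 3, by DESeq2 219 and 60, and with the replicate number as a block 341 and 170; limma-voom gave 103 and 7. Leaving out 1 library gave 116 to 230 lower and 27 to 81 higher, where the lone library of a group is assumed to vary like the other group. The 2 numbers per group do not establish pairs (correlation of same-numbered deviations 0.01 over 17693 genes), so the block is an alternative only. ERBB3 had -2.39 to -1.45 over the 11 alternatives. All of them reuse the libraries whose contrast chose it, so they are no support for the choice. In the alternatives that kept all 4 libraries ERBB3 was called lower, and the other 6 members were not called. Its adjusted p there ran from 5.1e-18 (edgeR with the block) to 0.0466 (edgeR with no filter). The sign of ERBB2 differed in 3 of 11 alternatives, being 0.00 with the block, and that of NRG1 in 1. PIK3R1 and LRIG1 were also called by DESeq2 (adjusted p = 0.00462 and 0.00493) and with the block (0.0243 and 0.00854), as was SPRY2 (0.0121 and 0.0027), named after its values were seen. Scaling moved the median of all genes by less than 0.1. The smallest member count, 81 reads of ERBB2, and 2 libraries per group limit what could be detected.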
